A study of Vitis vinifera and Vitis quinquangularis with 24 samples.

Results

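Among the 27711 gene models counted in the skin of grape berries, 679 carry an identifier that begins with Grape_newGene, a prefix that marks them as newly predicted. All rows with that prefix were taken as members, and the remaining 27032 rows are models whose identifiers begin with VIT, the prefix of the public Vitis vinifera annotation. Of the 679 members, 576 had at least 10 counts in at least 3 of the 24 libraries and are described here, and the other 103 fell below that limit. The limit cut through a continuous range, since 13 members had a third-highest count of exactly 10 and 11 members one of 9. Summed over the 24 libraries, the described members had 41 to 4104258 counts, with a median of 589.5, and the other 103 had 3 to 142.

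Gene models outside a reference annotation are usually assembled from spliced or clustered reads. Such sets are known to mix protein-coding genes that the annotation missed, extensions and alternative copies of annotated genes, long non-coding RNAs, antisense transcripts and transposon-derived RNAs. They are often short and weakly expressed, and they tend to vary more between strains than conserved genes do. The files give them no product, domain or sequence, so no function is stated here for any member, and the sources used here do not name the method that predicted them.

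The study followed the skin of berries from 2 grapes during ripening, under a title that names resveratrol accumulation as its aim. Danfeng-2 is an accession of Vitis quinquangularis, a wild Chinese grape, and Cabernet Sauvignon is a red wine cultivar of Vitis vinifera. Each was sampled at 4 stages of the Eichhorn-Lorenz (E-L) scale with 3 libraries per group, which gives 8 groups and 24 libraries of berry skin with no treatment named. The stages are E-L 33 (hard green berries), E-L 34 (onset of softening), E-L 35 (onset of colouring) and E-L 38 (harvest-ripe), called green, softening, colouring and ripe below. Nothing in the labels tells whether libraries of a group came from separate vines, so that p-values measure only the spread between libraries, which may be technical. The tissue label was not checked against marker genes, because the identifiers could be matched to no gene name.

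The libraries held 13201295 to 23095568 counts. Between libraries of the same group, log2 values of all tested models correlated at 0.995 to 0.998, except for 3 libraries whose correlations with their partners were 0.941 to 0.973. These were replicate 1 of green Danfeng-2, replicate 1 of colouring Danfeng-2 and replicate 3 of softening Cabernet Sauvignon. Over the new models alone, they correlated with their partners at 0.895 to 0.957, against 0.982 to 0.988 elsewhere. Several results that rest on them are given with and without them. Reads of Danfeng-2 were counted on models named for another species, so that fewer alignable reads and less RNA cannot be told apart in any comparison of the 2 grapes. In whole skin, fewer cells of a type and less RNA per cell cannot be told apart either.

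The new models were shorter than annotated ones, and each spans at least one gap of the kind an intron leaves. The described members had a length of 194 to 8331 bases with a median of 1234, against a median of 1717 for the 17986 VIT models that passed the same limit. Their span on the chromosome had a median of 3200 bases, against 5037 for VIT models. In none of the 576 did the length equal the span, whereas 2266 of the VIT models (12.6%) had no gap. A length divisible by 3, which every coding sequence without untranslated ends has, was found for 33.7% of the described members and 35.2% of the VIT models. The strands were close to balanced, with 270 described members on the plus strand and 306 on the minus strand.

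**Figure D1:**
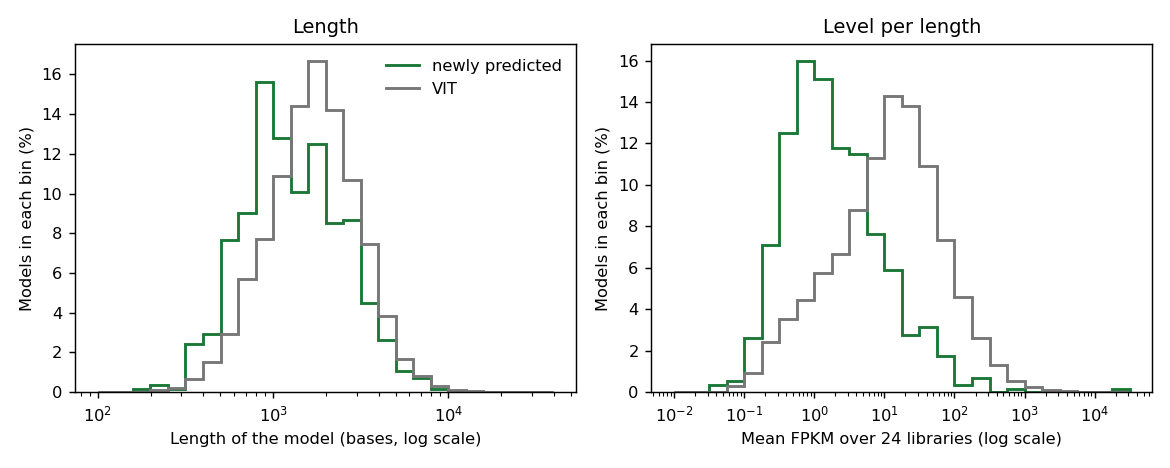
Distribution of the length of each model in bases (left, log scale) and of its mean FPKM over 24 libraries (right, log scale), as the percentage of models in each bin, for the 576 described new models and the 17986 VIT models that passed the same limit. The new models peak at a shorter length and at a level about an order of magnitude lower, with medians of 1234 bases and 1.55 FPKM against 1717 bases and 12.6 FPKM.

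Most new models lay between annotated genes rather than within them. Of the 576 described members, 437 (75.9%) overlapped no VIT model, 106 (18.4%) overlapped a VIT model on the same strand, and 33 (5.73%) overlapped one on the opposite strand only. The corresponding shares of VIT models that overlapped another VIT model were 6.14% on the same strand and 9.38% on the opposite strand only. Of the 106 same-strand members, 95 lay wholly within the span of the VIT model, introns included, and the counting program could have split reads between such a pair. Members without overlap had a median distance of 2490 bases to the nearest VIT model, against 1735 bases among VIT models. Of these members, 114 were within 1000 bases of a VIT model and 72 were more than 10000 bases away. Sequences not assigned to a chromosome held 82 (12.1%) of all new models and 8.78% of VIT models. Those sequences held 34.5 new models per 1000 VIT models, against 29.2 on chromosome 14 and 16.2 on chromosome 7. Positions are those of the deposited tables, and the sources used here name no genome build.

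The new models were expressed at a low level. FPKM, a level per length, had a median of 1.55 over the 576 described members and 12.6 over the VIT models. Only 86 members (14.9%) averaged 10 FPKM or more, against 55.8% of VIT models, and 351 members (60.9%) averaged at least 1 FPKM, against 88.3%. CPM, counts scaled to the adjusted library total, are used for levels below, while CPM per kilobase used the unadjusted total. On the latter scale the medians were 1.14 for new and 9.57 for VIT models. FPKM and CPM per kilobase differed by more than 2-fold in 6.77% of the models of either kind. From green to ripe skin the median member stood at 1.53, 1.41, 1.28 and 1.21 FPKM in Danfeng-2, and at 1.22, 1.14, 0.921 and 0.983 FPKM in Cabernet Sauvignon. Counts were found in all 24 libraries for 295 members (51.2%), against 85.0% of VIT models.

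A single member, Grape_newGene_2050, stood far above this. It has a length of 589 bases, lies at Un:22776812-22780375 on the plus strand of the unplaced sequences, and overlaps no VIT model, the nearest being VIT_00s0313g00010 at 849 bases on the same strand. Per length it was the most abundant of all 27711 models, with a mean of 26420.3 FPKM over the 24 libraries. On the other scale it had 18264.2 CPM per kilobase, against 12086.5 for the highest VIT model. It took 0.495% to 1.37% of all counts in a library and 55.2% to 74.2% of the counts in new models.

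In Danfeng-2, Grape_newGene_2050 had 11964.5, 11416.3 and 12276.3 CPM in green skin, 9833.1, 9588.5 and 10310.0 in softening, 10660.8, 10651.2 and 10796.6 in colouring and 8249.6, 13252.3 and 12911.1 CPM in ripe skin. Cabernet Sauvignon had 10287.1, 10296.0 and 10263.3 CPM in green skin, 4999.3, 5295.6 and 5852.5 in softening, 12485.2, 11771.6 and 12644.6 in colouring and 14178.8, 14684.5 and 14576.8 CPM in ripe skin. The 3 libraries of softening Cabernet Sauvignon lay below every other library. The change from softening to colouring in Cabernet Sauvignon, a log2 fold change of 1.19 ± 0.138 (SE), was the only one of 13 comparisons in which this model was called (adjusted p = 4.3e-07, edgeR's quasi-likelihood test with Benjamini-Hochberg adjustment). Here and below a model was called at an adjusted p below 0.05 together with a change of at least 2-fold. Replicate 1 of ripe Danfeng-2 stood well below its partners for this model.

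The share of all counts that fell in new models moved with Grape_newGene_2050. In Danfeng-2 it averaged 1.82% ± 0.076 (SD, n = 3) in green skin, 1.51% ± 0.0443 in softening, 1.65% ± 0.0172 in colouring and 1.48% ± 0.262 in ripe skin. In Cabernet Sauvignon it averaged 1.54% ± 0.00498, 0.952% ± 0.0812, 1.55% ± 0.0473 and 1.71% ± 0.0281 (SD, n = 3) at the same stages. The libraries of Danfeng-2 lay above those of Cabernet Sauvignon at the first 3 stages and below them in ripe skin. The ripe difference of -0.23 percentage points was -0.0788 without replicate 1 of ripe Danfeng-2. In an exact two-sided permutation test each of these comparisons gave p = 0.1, the smallest that 3 libraries against 3 allow. Over all stages the mean share was 1.61% in Danfeng-2 and 1.44% in Cabernet Sauvignon (12 libraries each, two-sided permutation test, p = 0.0991, or 0.1 adjusted over 7 comparisons). Without Grape_newGene_2050 the group means of the share lay between 0.411% and 0.511%, and the means over all stages were 0.456% in Danfeng-2 and 0.445% in Cabernet Sauvignon (permutation test, p = 0.55). Both tests over 12 libraries of each grape ignored stage. Differences between stages therefore entered their spread, and they do not measure the spread between libraries of a group. Counting error in a single library was small beside the differences in the full share between the grapes at each stage. A 95% Wilson score interval ran from 1.53% to 1.55% around the 1.54% of replicate 2 of green Cabernet Sauvignon.

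**Figure D2:**
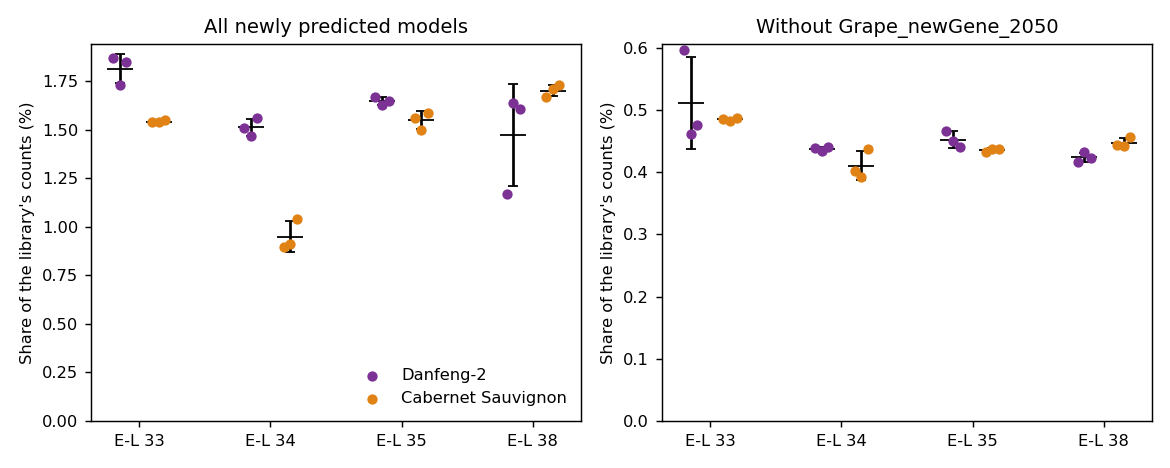
Share of each library's counts that fell in new models, in percent, for all 679 models (left) and without Grape_newGene_2050 (right). Points are libraries, horizontal lines are group means and bars are 1 SD with n = 3. On the left Cabernet Sauvignon at E-L 34 averages 0.952%, below every other group, and on the right the group means lie between 0.411% and 0.511%.

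The next members by mean CPM moved with ripening in different ways. Grape_newGene_2027, which lies within the opposite strand of VIT_00s0125g00020 and averaged 295.8 FPKM, was likewise lowest in softening Cabernet Sauvignon. That group had 195.2, 199.2 and 239.7 CPM, against 518.1, 491.0 and 499.8 CPM in green skin of the same grape, a log2 fold change of -1.25 ± 0.124 (SE, adjusted p = 2.1e-07). Grape_newGene_164 spans 124626 bases of chromosome 11 with a length of 3050, the widest span of any new model. It had 534.1, 515.8 and 484.1 CPM in ripe skin in Cabernet Sauvignon, against 161.0, 157.2 and 164.0 CPM in green skin, a log2 fold change of 1.67 ± 0.28 (SE, adjusted p = 3e-05). Its level in Cabernet Sauvignon was already at 579.9, 593.2 and 588.2 CPM in colouring skin, when Danfeng-2 had 212.6, 103.1 and 100.3 CPM. Danfeng-2 reached 360.3, 357.7 and 352.9 CPM in ripe skin. In colouring skin the log2 difference between the grapes was -2.08 ± 0.284 (SE, adjusted p = 3.4e-06). The value of 212.6 CPM belongs to a library that stood apart, and that difference is given only with it.

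Grape_newGene_1112, on chromosome 19, took opposite courses. In Danfeng-2 it had 54.7, 54.0 and 51.9 CPM in ripe skin, against 62.9, 63.4 and 71.1 CPM in green skin, which is less than 2-fold. Cabernet Sauvignon had 175.8, 175.5 and 176.9 CPM in ripe skin, against 51.6, 54.5 and 50.4 CPM in green skin. The 2 changes differed by -2.05 ± 0.132 (SE) on the log2 scale (adjusted p = 7e-10). Grape_newGene_545, on chromosome 14, fell in Danfeng-2 to 25.4, 23.1 and 23.4 CPM in ripe skin, against 105.4, 99.7 and 103.8 CPM in green skin, a log2 fold change of -2.1 ± 0.0886 (SE, adjusted p = 4.6e-13). Grape_newGene_1811, on chromosome 8, had 692 FPKM but only 108.9 CPM per kilobase, so that its level depends on the unit. In several members of high CPM, replicate 1 of green Danfeng-2 departed from its partners. For Grape_newGene_11 it had 254.1 CPM against 59.5 and 59.8 in the other 2 libraries, and without it the log2 fold change from green to ripe in Danfeng-2 was -0.53 in place of -1.59 and was no longer called. Without it Grape_newGene_957 was likewise no longer called in that span (0.96 in place of 1.38), nor Grape_newGene_155 against Cabernet Sauvignon in green skin (-0.89 in place of -1.08). The difference of spans also fell below 2-fold without it for Grape_newGene_11 (-0.8 in place of -1.86) and Grape_newGene_155 (0.99 in place of 1.18). Without replicate 3 of softening Cabernet Sauvignon, Grape_newGene_175 was not called between the grapes in softening skin (-0.97 in place of -1.13).

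A larger share of the new models than of all models tested was called between the 2 grapes. Of the 576, 553 passed a filter on low counts and were tested among 18375 models. Some of the 576 met the count limit through 1 grape alone. No count was found in Cabernet Sauvignon for 4.17% and in Danfeng-2 for 4.34%, against 0.411% and 0.545% of VIT models. Those that were tested entered the shares below, which were not recounted without them. In green skin 258 members (46.7%) were called, against 28.2% of all models tested. Of these, 134 were higher and 124 lower in Danfeng-2 than in Cabernet Sauvignon, where 13.5% and 14.6% of all models were higher and lower. In softening skin 273 members (49.4%) were called, against 27.4% of all, with 145 higher (12.8% of all models) and 128 lower (14.6%). In colouring skin 293 members (53.0%) were called, against 34.4% of all, with 167 higher (17.7%) and 126 lower (16.7%). In ripe skin 275 members (49.7%) were called, against 31.6% of all, with 142 higher (15.3%) and 133 lower (16.3%). The median size of the log2 difference in green skin was 1.33 in the members and 0.599 in all models tested, and in ripe skin it was 1.39 and 0.67.

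**Figure D3:**
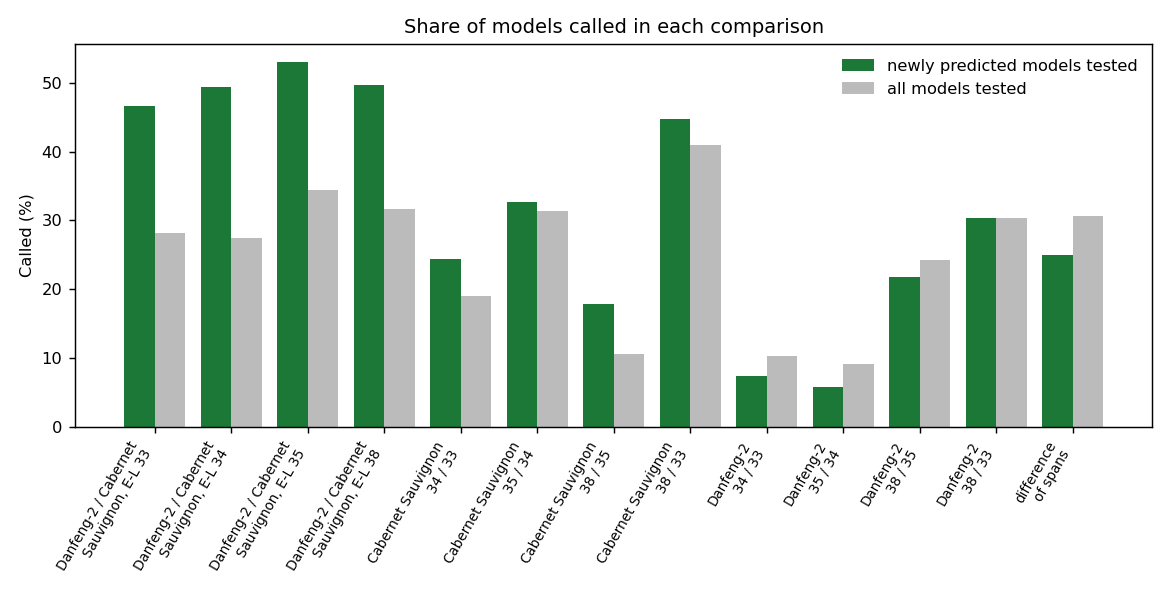
Percentage of models called (adjusted p below 0.05 and at least 2-fold) in each of 13 comparisons, for the 553 new models tested and for all 18375 models tested. In the 4 comparisons of Danfeng-2 with Cabernet Sauvignon the new models stand at 46.7% to 53.0%, above 27.4% to 34.4% of all models, while in the span from E-L 33 to E-L 38 of Danfeng-2 both stand at 30.4%.

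Models under 10 CPM were called more often than those at 10 CPM or more in both kinds of model at each of the 4 stages, so the members were also set beside VIT models of the same level. Among models that averaged under 1 CPM, 59.4% of 207 members and 41.7% of VIT models were called in ripe skin. From 1 to 10 CPM the shares were 50.4% of 252 members and 43.2% of VIT models, and at 10 CPM or more they were 26.6% of 94 members and 23.8% of VIT models. In green skin the same 3 classes gave 57.0%, 46.4% and 24.5% of the members, against 50.3%, 39.4% and 18.6% of VIT models. These differences in share are descriptions of the lists and were not tested. Members overlapping a VIT model on the same strand were called in 52.5% to 61.6% of 99 cases over the 4 stages, those with no overlap in 45.8% to 52.4% of 424, and those over the opposite strand alone in 26.7% to 40.0% of 30.

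In a principal component analysis of the 553 tested members, the first component carried 46.6% of the variance and separated the grapes, with Danfeng-2 at 7.78 to 13.7 and Cabernet Sauvignon at -13.7 to -9.54. The second component, with 21.3%, ran with the stages. Over all tested models the grapes overlapped on the first component, which carried 39.8% of the variance, and separated on the second, with 28.2%. The variance of each member over the 24 libraries was split by term, and the median of each share was taken separately. Over the members these medians were 32.7% between the grapes, 23.1% between stages, 13.4% in their interaction and 12% within groups. Over VIT models they were 15.6% between grapes and 36.2% between stages. In each class of level the median between-grape share was higher in the members. It was 38.7% against 21.5% under 1 CPM, 30.8% against 20% from 1 to 10 CPM, and 20.5% against 12.9% at 10 CPM or more.

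**Figure D4:**
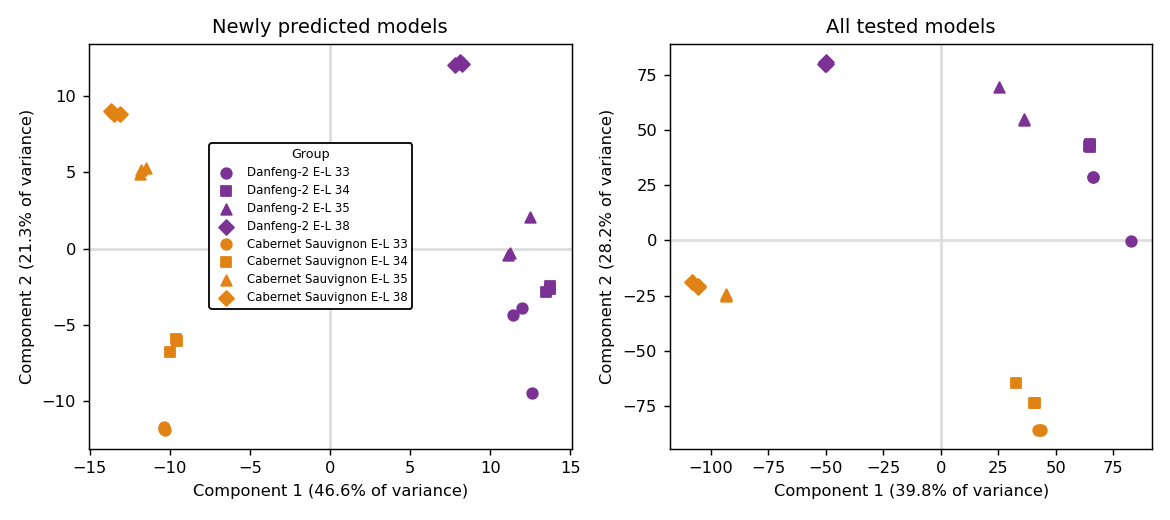
First and second principal components of log2(CPM + 1) in the 24 libraries, over the 553 tested new models (left) and over all 18375 tested models (right), with the share of variance on each axis. Colour gives the grape and the symbol the E-L stage. Over the new models all Danfeng-2 libraries lie at 7.78 or more and all Cabernet Sauvignon libraries at -9.54 or less on component 1.

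The difference between the grapes was often present at every stage. At all 4 stages, 75 members (13.6%) were called higher and 55 (9.95%) lower in Danfeng-2, against 3.75% and 4.62% of all models tested. A further 32 (5.79%, against 6.76%) were called higher at some stages and lower at others, and 142 (25.7%) were called at none, against 43.4% of all. No counts at all were found in the 12 Cabernet Sauvignon libraries for 24 of the 576 members (4.17%) and in the 12 Danfeng-2 libraries for 25 (4.34%). Among VIT models these shares were 0.411% and 0.545%. The limit of 10 counts in 3 libraries was met through the other grape alone in all these cases. The members had a median of 589.5 counts over all libraries, against 6847.5 for VIT models. Neither the shares without counts nor the calls at all 4 stages were compared within classes of level.

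There were 5 members with 10 or more counts in every library of 1 grape and 0 in every library of the other. Grape_newGene_1059 and Grape_newGene_944 (0.347% of the members, against 0.089% of VIT models) were read in Danfeng-2 alone. Grape_newGene_507, Grape_newGene_386 and Grape_newGene_183 (0.521%, against 0.106% of VIT models) were read in Cabernet Sauvignon alone. Grape_newGene_1059 lies at 18_random:4963584-4969208 on the minus strand, within the spans of a VIT model on each strand. In Danfeng-2 it had 7.0, 3.98 and 3.97 CPM in green skin, 5.66, 6.06 and 6.35 in softening, 3.66, 4.72 and 4.96 in colouring and 4.28, 2.68 and 4.28 CPM in ripe skin. With 0 counts in Cabernet Sauvignon set to 3 counts over the 3 libraries, its level in Danfeng-2 was at least 133.5-fold higher in softening skin. No p-value is given, since the member was picked for its absence of counts in Cabernet Sauvignon. Grape_newGene_944, on chromosome 18 within VIT_18s0041g00870, ran from 1.74 to 4.71 CPM in Danfeng-2 libraries, with 647 counts in all.

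Grape_newGene_507 lies at 14:12469316-12473874 on the plus strand, 3178 bases from the nearest VIT model. In Cabernet Sauvignon it had 2.39, 2.92 and 2.59 CPM in green skin, 6.08, 6.48 and 4.3 in softening, 5.09, 3.84 and 3.9 in colouring and 10.3, 10.2 and 7.9 CPM in ripe skin. It rose in that grape by a log2 fold change of 1.84 ± 0.23 (SE) from green to ripe (adjusted p = 2e-05), while no Danfeng-2 library had a count. In ripe skin its level in Danfeng-2 was at least 120.9-fold lower. Grape_newGene_386, on chromosome 13 within VIT_13s0158g00420, had 6.76, 9.5 and 11.4 CPM in Cabernet Sauvignon in green skin and lay at 1.86 to 4.31 CPM at the later stages. Grape_newGene_183, on chromosome 11, was weak, at 0.848 to 1.35 CPM in the Cabernet Sauvignon libraries.

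Grape_newGene_235, at 12:3358961-3362337 on the plus strand and 985 bases from VIT_12s0028g02580 on the same strand, was close to absent from Danfeng-2 and abundant in Cabernet Sauvignon. In Danfeng-2 its 12 libraries held 19 counts in all and at most 0.507 CPM. Cabernet Sauvignon had 144.4, 122.8 and 136.9 CPM in green skin, 158.8, 90.1 and 152.4 in softening, 88.2, 91.5 and 64.5 in colouring and 83.7, 82.2 and 121.7 CPM in ripe skin. In green skin it averaged 0.0796 ± 0.138 CPM in Danfeng-2, against 134.7 ± 11 CPM in Cabernet Sauvignon (SD, n = 3 each), a log2 fold change of -10.48 ± 0.546 (SE). No p-value is given, since the member met the count limit through Cabernet Sauvignon alone. The log2 fold changes at the later stages were -11.4, -9.79 and -8.79. Per length it was among the most abundant new models, with 187.7 FPKM over all libraries.

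Grape_newGene_1512, on chromosome 5, had the same form at a lower level. In Danfeng-2 no library exceeded 0.0823 CPM, and in Cabernet Sauvignon it had 9.08, 9.44 and 9.76 CPM in green skin, 14.4, 15.8 and 15.1 in softening, 10.9, 9.77 and 10.3 in colouring and 11.4, 12.9 and 11.6 CPM in ripe skin. From 2 counts against 1002 in softening skin, Cabernet Sauvignon was 360.0-fold higher, with an exact 95% interval of 99.4 to 2976.9 that covers counting error only. Grape_newGene_1051, on a sequence assigned to chromosome 18 without a place, was also lower in Danfeng-2 at all 4 stages, with log2 fold changes of -6.3, -5.32, -6.89 and -6.4. It overlaps VIT_18s0001g06700 on the same strand.

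In the opposite direction, Grape_newGene_1395, at 4:2174923-2180032 on the minus strand, was higher in Danfeng-2 at every stage. It had 28.6, 23.7 and 21.4 CPM in Danfeng-2 in colouring skin, against 0.495, 0.472 and 0.932 CPM in Cabernet Sauvignon, a log2 fold change of 5.24 ± 0.262 (SE, adjusted p = 3.2e-12). The log2 fold change was 3.82 in green, 4.93 in softening and 3.06 in ripe skin. Grape_newGene_273, on chromosome 12 within VIT_12s0035g00030 on the same strand, had 14.6, 16.3 and 15.7 CPM in Danfeng-2 in softening skin, against 2 counts in all in Cabernet Sauvignon. Grape_newGene_1313, on chromosome 3 within VIT_03s0038g01520, had 5.6, 6.06 and 5.4 CPM in Danfeng-2 at the same stage, against 1 count. Grape_newGene_689, on chromosome 15, had 8.03, 11.7 and 11.8 CPM in Danfeng-2 in green skin and no count in Cabernet Sauvignon, so that Danfeng-2 was at least 166.6-fold higher. In ripe skin it had 5.65, 8.46 and 6.5 CPM in Danfeng-2 against 0.358, 0.148 and 0.0 CPM in Cabernet Sauvignon.

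**Figure D5:**
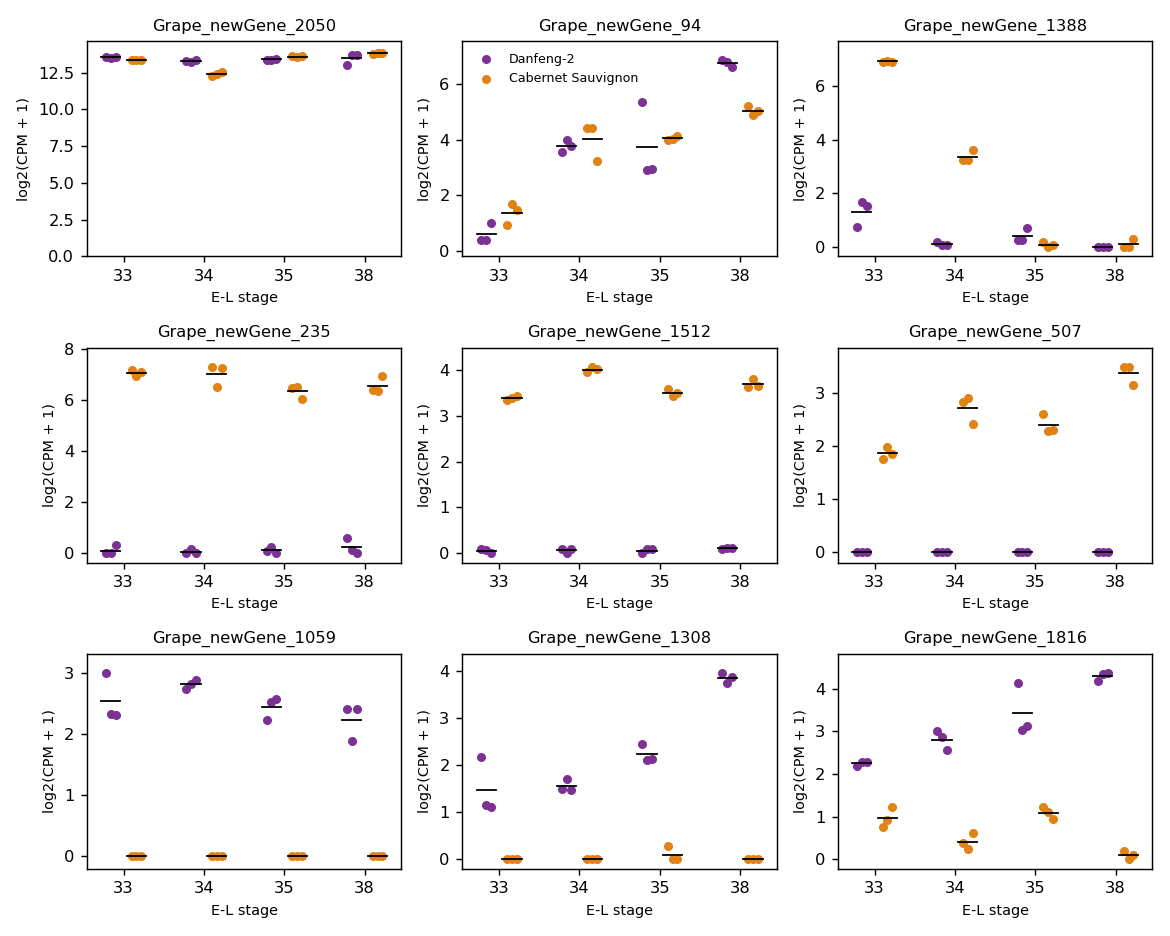
Level of 9 new models in each library as log2(CPM + 1) by E-L stage, in Danfeng-2 (left of each stage) and Cabernet Sauvignon (right of each stage). Points are libraries and lines are the means of the 3 log values, and the vertical scale differs between panels. Grape_newGene_235, Grape_newGene_1512 and Grape_newGene_507 lie at or near 0 in Danfeng-2 at every stage, and Grape_newGene_1059 lies at 0 in Cabernet Sauvignon.

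Through ripening in Cabernet Sauvignon, 247 of 553 members (44.7%) were called from green to ripe skin, against 41% of all models tested. Of these, 103 rose and 144 fell, where 17.8% of all models rose and 23.2% fell. By step, 135 members (24.4%) were called from green to softening, against 19% of all models, 181 (32.7%) from softening to colouring, against 31.4%, and 99 (17.9%) from colouring to ripe, against 10.6%. Without the 3 libraries that stood apart, the first of these counts was 203, and the share of all models under that setting is not given here. Of the 552 members with counts in this grape, 196 (35.5%) had their highest mean in green, 131 (23.7%) in softening, 92 (16.7%) in colouring and 133 (24.1%) in ripe skin. The shares of VIT models at these stages were 28.2%, 23.8%, 18.9% and 29.2%.

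A steep fall in Cabernet Sauvignon was that of Grape_newGene_1388, at 4:21714653-21716420 on the plus strand and 22747 bases from the nearest VIT model. It had 117.7, 121.8 and 118.3 CPM in green skin, 8.45, 8.45 and 11.3 in softening, 0.141, 0.0 and 0.0583 in colouring and 0.0, 0.0 and 0.224 CPM in ripe skin. The 3 counts left in ripe skin put green skin 1626.4-fold higher, with an exact interval of 556.2 to 7888.7 for counting error. In Danfeng-2 the same model had 0.664, 2.17 and 1.86 CPM in green skin and at most 0.628 CPM in any later library. It was called lower in both grapes in ripe skin, and the grapes differed by -6.22 ± 0.366 (SE) on the log2 scale in green skin (adjusted p = 3.6e-10). Grape_newGene_482, on a sequence assigned to chromosome 13 without a place, fell in Cabernet Sauvignon to 0.297 ± 0.199 CPM in ripe skin, against 32.7 ± 1.76 CPM in green skin (SD, n = 3 each). In Danfeng-2 it first stood at 24.5, 47.1 and 49.0 CPM in green skin and 78.4, 79.7 and 81.5 CPM in softening skin, and then at 43.6, 27.4 and 27.5 CPM in colouring skin and 1.45, 1.14 and 0.823 CPM in ripe skin.

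Among the members that rose in Cabernet Sauvignon, Grape_newGene_1399, on chromosome 4, had 0.273, 0.0562 and 0.0664 CPM in green skin, 0.0875, 0.141 and 0.179 in softening, 3.04, 2.83 and 3.09 in colouring and 19.1, 20.1 and 20.9 CPM in ripe skin. Its log2 fold change over the span was 7.22 ± 0.463 (SE, adjusted p = 7.6e-11). Grape_newGene_15, on chromosome 1, had no count in green or softening skin in that grape and 5.73, 3.86 and 6.48 CPM in ripe skin. In Danfeng-2 it had 1 count in 12 libraries. Grape_newGene_1614, on chromosome 6, rose in both grapes but at different steps. It had 0.644, 0.425 and 0.254 CPM in Danfeng-2 in softening skin against 3.72, 3.75 and 2.33 CPM in Cabernet Sauvignon, and 19.6, 17.2 and 17.8 CPM in Danfeng-2 in ripe skin against 13, 13.9 and 21.2 CPM in Cabernet Sauvignon. The log2 difference between the grapes was -2.87 ± 0.477 (SE, adjusted p = 4.9e-05) in softening skin and 0.18 ± 0.347 (SE, adjusted p = 0.68) in ripe skin.

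In Danfeng-2, 168 of 553 members (30.4%) were called from green to ripe, the same share as the 30.4% of all models tested. Of these, 53 rose and 115 fell, where 11.5% of all models rose and 18.8% fell. The first steps gave few calls, with 41 members (7.41%, against 10.3% of all models) from green to softening and 32 (5.79%, against 9.12%) from softening to colouring, or 71 members against 26.7% of all models with no fold minimum. The last step gave 120 members (21.7%, against 24.3%). Without the 3 libraries that stood apart the first 2 counts were 66 and 67. The share of all models under that setting is not given here, so these counts cannot be set beside 10.3% and 9.12%. Of the 551 members with counts in Danfeng-2, 177 (32.1%) had their highest mean in green, 115 (20.9%) in softening, 113 (20.5%) in colouring and 146 (26.5%) in ripe skin. The shares of VIT models at these stages were 27.4%, 16.9%, 23.3% and 32.3%. Of the 527 members read in both grapes, 190 (36.1%) had their highest mean at the same stage in both, against 38.8% of VIT models.

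Grape_newGene_94, at 10:10865125-10866881 on the plus strand, rose in both grapes and further in Danfeng-2. In Danfeng-2 it had 0.302, 0.302 and 1.0 CPM in green skin, 10.8, 14.7 and 12.6 in softening, 39.7, 6.45 and 6.72 in colouring and 114.0, 110.4 and 97.3 CPM in ripe skin. Cabernet Sauvignon had 0.888, 2.25 and 1.79 CPM in green skin, 20.1, 20.4 and 8.38 in softening, 14.8, 15.2 and 16.4 in colouring and 36.2, 28.4 and 31.5 CPM in ripe skin. The log2 fold change over the span was 7.58 ± 0.701 (SE, adjusted p = 2.4e-08) in Danfeng-2 and 4.26 ± 0.603 (SE, adjusted p = 4e-06) in Cabernet Sauvignon, and the difference of the 2 was 3.32 ± 0.93 (SE, adjusted p = 0.0059). The values of 39.7 and 8.38 CPM belong to libraries that stood apart. Grape_newGene_691, on chromosome 15, appeared at the last stage in Danfeng-2. It had 9.13, 7.81 and 9.47 CPM in ripe skin and 3 counts in green skin, with none in softening or colouring skin.

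The size of some falls in Danfeng-2 rested on a single library. Grape_newGene_1381, on chromosome 4, had 1066.3, 0.0504 and 0.143 CPM in green skin, where replicate 1, which stood apart, held nearly all of the signal. No count was found in ripe skin. Its log2 fold change was -15.5 with that library and -3.79 without it (adjusted p = 0.038). In Cabernet Sauvignon it had 10.6, 10.2 and 11.8 CPM in green skin and at most 0.0939 CPM afterwards. Grape_newGene_1714, on chromosome 7, had 246.8, 1.71 and 1.24 CPM in Danfeng-2 in green skin, and its log2 fold change was -11.26 with replicate 1 and -5.46 without it. Grape_newGene_517, on chromosome 14, had 0.0, 0.0813 and 0.165 CPM in ripe skin, against 109.3, 10.6 and 11.5 CPM in green skin, and was low in ripe skin against each green library. By contrast Grape_newGene_1203, on chromosome 2, fell without such a library, with 8.33, 13.6 and 14.7 CPM in green skin, 15.1, 14.5 and 11.6 in softening, 6.03, 4.28 and 3.89 CPM in colouring skin and no count in ripe skin, where it was at least 155.3-fold lower than in green skin.

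Over the whole span from green to ripe, 24 members (4.34%) rose in both grapes and 55 (9.95%) fell in both, against 5.92% and 11.5% of all models tested. Another 5 (0.904%, against 1.09%) rose in Danfeng-2 but fell in Cabernet Sauvignon, and 8 (1.45%, against 0.903%) did the reverse. The difference of the 2 changes itself was called for 138 members (25%), against 30.6% of all models tested. It was higher in Danfeng-2 for 65 (14.6% of all models) and lower for 73 (16%). Grape_newGene_1816, at 8:19508922-19539007 on the plus strand, rose in Danfeng-2 and fell in Cabernet Sauvignon. In Danfeng-2 it had 3.56, 3.83 and 3.87 CPM in green skin, 7.02, 6.25 and 4.89 in softening, 16.6, 7.14 and 7.66 in colouring and 17, 19.3 and 19.7 CPM in ripe skin. Cabernet Sauvignon had 0.683, 0.9 and 1.33 CPM in green skin, 0.306, 0.188 and 0.538 in softening, 1.34, 1.15 and 0.932 in colouring and 0.143, 0.0 and 0.0745 CPM in ripe skin. The groups did not overlap at any stage, and the difference of the changes was 5.9 ± 0.683 (SE, adjusted p = 9.4e-07) on the log2 scale.

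Grape_newGene_1629, on chromosome 6, differed little between stages in Danfeng-2, with 9.5, 10.5 and 10.6 CPM in ripe skin against 12.4, 10.3 and 8.89 CPM in green skin. In Cabernet Sauvignon it fell to 0.43, 0.297 and 0.224 CPM in ripe skin, against 5.53, 7.25 and 7.77 CPM in green skin, a log2 fold change of -4.4 ± 0.443 (SE, adjusted p = 4.4e-08). Grape_newGene_1308, on chromosome 3, was read in Danfeng-2 with 3 counts in all in Cabernet Sauvignon. It had 14.6, 12.4 and 13.6 CPM in Danfeng-2 in ripe skin, against 3.5, 1.21 and 1.15 CPM in green skin. Grape_newGene_773, on chromosome 16 and within the opposite strand of VIT_16s0013g01680, had 14, 18.2 and 18.5 CPM in ripe skin in Cabernet Sauvignon. In Danfeng-2 it had 1 count in 12 libraries. Grape_newGene_928, on chromosome 18, was lower in Danfeng-2 in green skin, with 11.4, 4.08 and 4.44 CPM against 29.5, 28.9 and 29.6 CPM in Cabernet Sauvignon, and higher in colouring skin, with 3.02, 8.5 and 7.91 CPM against 0.0, 0.269 and 0.175 CPM. The values of 11.4 and 3.02 CPM belong to libraries that stood apart.

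New models also overlapped one another. There were 27 pairs on opposite strands, 22 with both members described, and in 9 pairs the overlap covered at least 90% of the longer span. Over the 8 group means, log2 levels of these pairs correlated with a median of 0.66, a description over groups that share libraries. The sources used here do not state whether counting used strand, so that reads of the 2 strands of such a pair may not have been told apart. Grape_newGene_843 and Grape_newGene_861, on the plus and minus strands of chromosome 17, share 97.8% of the longer span and have lengths of 7111 and 6988 bases. They averaged 4.65 and 5.38 CPM. Grape_newGene_1816 overlaps Grape_newGene_1842 on the opposite strand over 96.6% of its span, and their correlation was 0.94. Grape_newGene_1842 had 1.88, 2.6 and 2.55 CPM in Danfeng-2 in ripe skin and no count in Cabernet Sauvignon.

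The longest new model, Grape_newGene_477, has a length of 8331 bases on a sequence assigned to chromosome 13 without a place. It had 1.75, 1.11 and 0.812 CPM in Danfeng-2 in green skin, against 20.4, 17.1 and 16.9 CPM in Cabernet Sauvignon, a log2 fold change of -3.9 ± 0.24 (SE, adjusted p = 1.4e-10). It was called lower in Danfeng-2 at the other stages too, with log2 fold changes of -2.81, -2.8 and -1.97. Of the members that run against an annotated gene, Grape_newGene_95, on chromosome 10 within VIT_10s0071g00330 on the other strand, was called in none of the 13 comparisons and stayed between 8.32 and 17.5 CPM in the 24 libraries. Grape_newGene_687, on chromosome 15, had 0.362, 0.0 and 0.165 CPM in Danfeng-2 in ripe skin, against 5.23, 4.01 and 4.62 CPM in Cabernet Sauvignon.

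The profiles of new models were weakly like those of their annotated neighbours. Over the 8 group means, the log2 level of a member and of its nearest tested VIT model correlated with a median of 0.22 over 553 pairs, against 0.09 over 17818 pairs of VIT models. For the 221 members that overlapped their neighbour or lay within 1000 bases of it the median was 0.30, against 0.11 for VIT models so placed. For the 31 that overlapped it on the opposite strand only it was 0.53, against 0.16. For the 97 that overlapped it on the same strand it was 0.31, against 0.27. Without overlap but within 1000 bases, it was 0.17 against 0.14 on the same strand (49 members) and 0.21 against 0.04 on the opposite strand (44 members). A correlation over 0.9 was found for 37 members (6.69%), against 2.81% of the pairs of VIT models. Among members named above, it was 1.0 for Grape_newGene_944 and 0.95 for Grape_newGene_1313, each with the VIT model it lies within. Grape_newGene_1816 had 0.96 with VIT_08s0007g05630, 76 bases away on the same strand. By contrast Grape_newGene_1059 had -0.07 and Grape_newGene_386 had 0.28 with an overlapping VIT model. Neighbours share the libraries and, where they overlap, may share reads, and these values are given as a description.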

How the data were processed

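RNA of berry skin was sequenced in 24 libraries, 3 in each of 8 groups of grape and stage, as grouped by the labels. TopHat2 served as the aligner, per the submitters' processing notes. For the genome build, the counting program, its use of strand and the prediction of new models, nothing is given in the sources used here. Each deposited table holds, per the file headers, a whole-number count, an FPKM value, a normalized signal and a length for each model in 1 library. The count in each table was made by the authors, and the FPKM was scaled by them to length and library. The deposited normalized signal, a count times a library factor for most models, was not used.

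Counts were tested with edgeR 4.0.16 in R 4.3.3 (TMM scaling, filterByExpr, quasi-likelihood F test, 1 model over all 8 groups), and p-values were adjusted by Benjamini-Hochberg over 18375 models. Calls needed an adjusted p under 0.05 with at least 2-fold between the groups. CPM are counts scaled to the TMM-adjusted library total, levels and principal components used log2(CPM + 1), and standard errors are the log2 fold change over the root of its F. CPM per kilobase used the library total without that adjustment. A group with 0 counts was set to 3 counts over its libraries for a bound. Bounds, ratios and binomial intervals cover counting error only, since reads carried no molecular identifiers that the sources describe. Scripts were tested on simulated data. DESeq2 1.42.0 and limma 3.58.1 on log2(FPKM + 1) were alternatives, and other steps used Python 3.11.15 with scipy 1.17.1. Replicate numbers did not pair the libraries: same-numbered libraries of different groups deviated with a mean correlation of 0.000284, and 3 of 84 pairs exceeded 0.1.

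Named members were the 10 of highest mean CPM, up to 5 highest and 5 lowest called changes in each of 7 comparisons with a mean of at least 5 CPM and no overlap of libraries, those read in 1 grape alone, the 5 longest, and the 5 with the greatest overlap of a VIT model on the opposite strand. In the difference of spans, no overlap was not required. Where a member was picked by its change in a comparison, the adjusted p of that change is no separate evidence. Grape_newGene_843, Grape_newGene_861 and Grape_newGene_1842 illustrate overlapping pairs, and Grape_newGene_1842 was chosen after its values were seen. The members and lists were chosen with earlier results of these data known.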

Additional observations from a re-analysis of the deposited data

Results flagged for a closer look

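The 10 members here had the 5 highest and 5 lowest called differences between the grapes in the change from green to ripe skin. Values are Danfeng-2 minus Cabernet Sauvignon on the log2 scale (edgeR's quasi-likelihood test, adjusted p). Since the members were picked by this same test, their adjusted p is no separate evidence. Other named members, such as Grape_newGene_1112 and Grape_newGene_94, were called in it too. For Grape_newGene_1816 the difference was 5.9 (adjusted p = 9.4e-07), from log2 changes of 2.31 in Danfeng-2 and -3.59 in Cabernet Sauvignon. Grape_newGene_1629 had a difference of 4.35 (adjusted p = 2.5e-06), Grape_newGene_267 one of 5.05 (adjusted p = 5.5e-05) and Grape_newGene_1920 one of 4.84 (adjusted p = 1e-04). That of Grape_newGene_1920 was 8.25 without replicate 1 of ripe Cabernet Sauvignon and 1.24 with limma on log2(FPKM + 1), and was called in both. For Grape_newGene_947, which lies within VIT_18s0089g00340, the difference was 10.26 (adjusted p = 0.0016). It had no count in ripe Cabernet Sauvignon, so this fitted value is no bound.

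In the other direction, Grape_newGene_517 had a difference of -11.25 (adjusted p = 1.6e-05), and replicate 1 of green Danfeng-2 held 83.2% of its signal in that group. Grape_newGene_1203 had -6.29 (adjusted p = 0.0016) and no count in ripe Danfeng-2. Grape_newGene_972 had -6.87 (adjusted p = 0.0057), Grape_newGene_689 had -5.16 (adjusted p = 0.0045) and Grape_newGene_773 had -6.48 (adjusted p = 0.033), and each had a group with no count. With limma on log2(FPKM + 1) neither Grape_newGene_972, at -0.51 (adjusted p = 0.14), nor Grape_newGene_689, at -0.83, which is under 2-fold (adjusted p = 0.013), was called. On log2(FPKM + 0.1) the differences were -1.91 and -1.84, and both were called. Without replicate 1 of green Danfeng-2, Grape_newGene_773 had a difference of -4.77 and was no longer called, nor was it without any 1 of the 3 ripe Danfeng-2 libraries (adjusted p = 0.053, 0.05 and 0.05).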

How the results depend on the processing

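Replicates numbered alike did not pair, and with the replicate block the counts of called members changed little, to 253, 272, 294 and 274 between the grapes by stage, 241 in the Cabernet Sauvignon span, 163 in the Danfeng-2 span and 133 in the difference. A minimum of 50 counts in 3 libraries left 303 members and counts of 122, 133, 154 and 138 between the grapes, 79, 108 and 63 by step and 143 over the span in Cabernet Sauvignon, and 27, 70 and 106 in the first step, the last step and the span of Danfeng-2. Fewer models entered these counts. The counts in this section are of members only, without the share of all models tested under the same setting. With limma on log2(FPKM + 1) the counts were 178, 178 and 167 between the grapes from softening on, 71, 98, 51 and 141 in Cabernet Sauvignon, and 17, 16, 65 and 109 in Danfeng-2. With the pseudocount alone changed, log2(FPKM + 0.1) gave 275, 298 and 278 between the grapes from softening on, 143, 175, 111 and 245 in Cabernet Sauvignon, and 41, 39, 124 and 162 in Danfeng-2. Without the 3 libraries that stood apart, the early steps gave 203 in Cabernet Sauvignon and 66 and 67 in Danfeng-2, and with no fold minimum the second Danfeng-2 step gave 71. Leaving out 1 library at a time gave 257 to 286, 273 to 293, 294 to 320 and 263 to 297 members between the grapes, 123 to 177, 159 to 221, 78 to 113 and 230 to 260 in Cabernet Sauvignon, 28 to 49, 22 to 41, 108 to 141 and 156 to 181 in Danfeng-2, and 124 to 150 for the difference. The change in the share of counts between ripe and green Cabernet Sauvignon turned to -0.0902 percentage points of summed FPKM and to -0.0379 without Grape_newGene_2050. Leaving out 1 library gave differences in share between the grapes of 0.243 to 0.315, 0.535 to 0.609, 0.0729 to 0.119 and -0.314 to -0.0788 percentage points, and spans of -0.423 to -0.188 in Danfeng-2 and 0.151 to 0.178 in Cabernet Sauvignon. Against expressed VIT models alone the median distance was 3781 bases, and among members that overlapped their neighbour or lay within 1000 bases of it the median correlation with the neighbour was 0.30. Of 91 named results, 10 lost their call under some alternative and 0 reversed. In all, 23 described members could not be tested.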
